A study of Homo sapiens with 3 samples.

Results

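The genes described here are the clustered histone genes, as read in 3 RNA-seq libraries of PANC-1 cells, an established line from a human pancreatic carcinoma. They were taken by name, as the rows whose symbol begins with HIST1H, HIST2H, HIST3H or HIST4H. Of 89 such rows, 14 carry pseudogene names and were left out, which leaves 75 of the 51136 genes counted. By histone type they comprise 6 H1 genes, 17 H2A genes, 23 H2B genes, 14 H3 genes and 15 H4 genes. The control library came from untreated cells, the Rg3 library from cells given 200 μM ginsenoside Rg3, a saponin of ginseng, for 24 h, and the TAM library from cells given 50 μM tamoxifen, a non-steroidal antiestrogen, for 24 h. Each condition has 1 library, so no difference has a replicate check and no test between conditions was possible. The values are from a single cell line, and whether a library pooled several cultures is not given in the sources used here.

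Histones are the proteins around which DNA is wound. H2A, H2B, H3 and H4 form the core particle, and H1, the linker histone, binds the DNA that enters and leaves it. The clustered genes are short, lack introns in their classical form and are transcribed mainly while DNA is replicated. Their classical mRNAs end in a stem-loop that is bound by the protein SLBP, and carry no poly(A) tail, unlike almost every other mRNA. Several of the genes can also give longer, polyadenylated transcripts. How the RNA was selected before the libraries were made, whether by poly(A) tail or otherwise, is not given in the sources used here, and this bears on how much of a histone transcript pool is counted.

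All 75 genes were found by name in the GENCODE 29 annotation of GRCh38, the build named in the submitters' processing notes. On chromosome 6 lie 55 of them, the HIST1 genes, between 25726132 and 27893843. Another 19 lie on chromosome 1, of which 15 are HIST2 and 4 are HIST3 genes, and HIST4H4 lies on chromosome 12. The annotation marks 70 as protein-coding. The other 5 are HIST2H2BA, HIST2H2BB, HIST2H2BC, HIST2H2BD and HIST3H2BA.

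The stem-loop was looked for in the annotated transcripts, on the transcript strand only, by its 16-base pattern of a 6-base stem and a 4-base loop. A match was present in 113 of 206694 transcripts of the annotation (0.0547%), which carry 67 gene names. Only 35 of these names are among the 75 genes, so the pattern is not confined to them. The 35 are 14 of H2B, 8 of H4, 7 of H2A, 6 of H3 and 0 of H1. Of the 40 genes with no match, 32 are annotated with the coding part only, so the bases after the stop codon were not in the window searched, and 8 have annotated bases beyond it. In 25 of the 35 genes with a match, an annotated transcript ran over 100 bases beyond the stem-loop. The matches took 6 forms, of which 4 are shown because they separate the H4 genes from the others. Capitals mark the stem, and lower case letters the loop.
Stem-loop of 18 H2A, H2B and H3 genes: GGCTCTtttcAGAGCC
Stem-loop of 5 H2B and H3 genes: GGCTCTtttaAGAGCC
Stem-loop of 5 H4 genes: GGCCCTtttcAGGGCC
Stem-loop of 3 H4 genes: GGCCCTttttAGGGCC

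Promoters, taken as the 250 bases before and 50 bases after the RefSeq gene start in GRCh38.p14, were matched for 61 of the 75 genes. They were searched on both strands for the TATA box letters TATAAA, the CCAAT box letters CCAAT and the octamer ATTTGCAT, the site bound by the factor OCT1 in H2B promoters. The motifs do not overlap by definition, but a TATAAA match on one strand can run into one on the other. TATAAA was present in 65.57% of the histone promoters and 11.53% of 35116 promoters of all genes, CCAAT in 83.61% and 34.61%, and the octamer in 42.62% and 1.774%. The octamer was found in 14 of 18 H2B promoters and 11 of 14 H2A promoters, in 1 of 10 H3 promoters and in 0 of 6 H1 and 0 of 13 H4 promoters. The H3 match is that of HIST1H3D, whose RefSeq gene has the same start as the H2A gene HIST1H2AD. The same window was thus counted for both, and it is the promoter next to HIST1H2AD. CCAAT was found in each H1, H2A, H2B and H3 promoter searched, but in 3 of 13 H4 promoters. The promoters shown are those of HIST1H2BK and HIST1H1C, on which most of the reads were counted, and of HIST1H2BJ, which had the largest log2 fold change with TAM among the genes with at least 50 counts. Only the 250 bases before the start are shown and aligned. Capitals mark each match to TATAAA or to CCAAT or to the octamer on either strand.
HIST1H1C promoter, chr6:26056471-26056720, minus strand: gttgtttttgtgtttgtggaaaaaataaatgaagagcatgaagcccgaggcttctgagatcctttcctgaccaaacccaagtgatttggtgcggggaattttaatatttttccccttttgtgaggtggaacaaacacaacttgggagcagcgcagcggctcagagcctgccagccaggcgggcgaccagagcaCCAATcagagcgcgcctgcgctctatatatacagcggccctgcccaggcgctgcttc
HIST1H2BK promoter, chr6:27146859-27147108, minus strand: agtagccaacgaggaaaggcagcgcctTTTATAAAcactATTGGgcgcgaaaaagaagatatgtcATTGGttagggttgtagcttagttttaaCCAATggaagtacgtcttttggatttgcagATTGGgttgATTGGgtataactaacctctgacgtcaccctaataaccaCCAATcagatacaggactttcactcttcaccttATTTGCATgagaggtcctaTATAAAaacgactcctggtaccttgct
HIST1H2BJ promoter, chr6:27132796-27133045, minus strand: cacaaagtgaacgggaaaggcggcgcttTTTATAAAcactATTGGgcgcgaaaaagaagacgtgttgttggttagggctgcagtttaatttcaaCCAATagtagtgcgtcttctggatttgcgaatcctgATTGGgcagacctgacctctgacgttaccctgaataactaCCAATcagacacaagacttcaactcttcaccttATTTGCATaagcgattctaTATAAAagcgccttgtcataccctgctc
The HIST1H2BJ and HIST1H2BK promoters were alike at 204 of 257 aligned positions (79.4%), and those of HIST1H2BK and HIST1H1C at 142 of 305 (46.6%). The HIST1H1C stretch shown holds a single CCAAT match, near its 3′ end, and no match to the exact letters TATAAA or to the octamer. Other forms of a TATA box were not searched for, so none is said to be absent.

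The libraries held 11300766 counts (control), 12861693 counts (Rg3) and 11321442 counts (TAM), of which 2304, 2330 and 4021 fell on the 75 histone genes. These are 0.02039%, 0.01812% and 0.03552% of all counts. A count of 0 allows up to 3 counts, or 0.261, 0.208 and 0.301 CPM in the control, Rg3 and TAM libraries, where CPM is the count per 1000000 TMM-scaled counts of the library. No read was counted on 12 of the genes in any library. Another 35 had 1 to 9 counts at most, 28 reached 10 counts in some library, and 6 reached 100. The counts on single histone genes are therefore small, and the sums over a histone type carry the description below. Of the ductal epithelial markers, the keratins KRT8 (15329, 7817 and 14411 counts in the control, Rg3 and TAM libraries), KRT18 (11216, 7406 and 13162), KRT19 (665, 290 and 181) and KRT7 (248, 93 and 345) and the cadherin CDH1 (76, 39 and 5) were each lowest in a treated library. The 12 markers of acinar, endocrine, leukocyte, endothelial and fibroblast cells had 0 to 2 counts in each library. What part such differences between the libraries have in the histone values was not tested.

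Reads were concentrated on a few genes. HIST1H2BK, an H2B gene, held 41.75% (control), 43.35% (Rg3) and 35.04% (TAM) of the histone counts. With HIST1H1C, the gene for the linker histone H1.2, the share was 62.02%, 60.13% and 66.18%. Adding HIST1H2BD, HIST1H2AC, HIST2H2AA3 and HIST2H2AA4, the 6 genes held 82.9%, 80.34% and 84.11%. These are shares of reads and not levels per length of transcript.

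**Figure D1:**
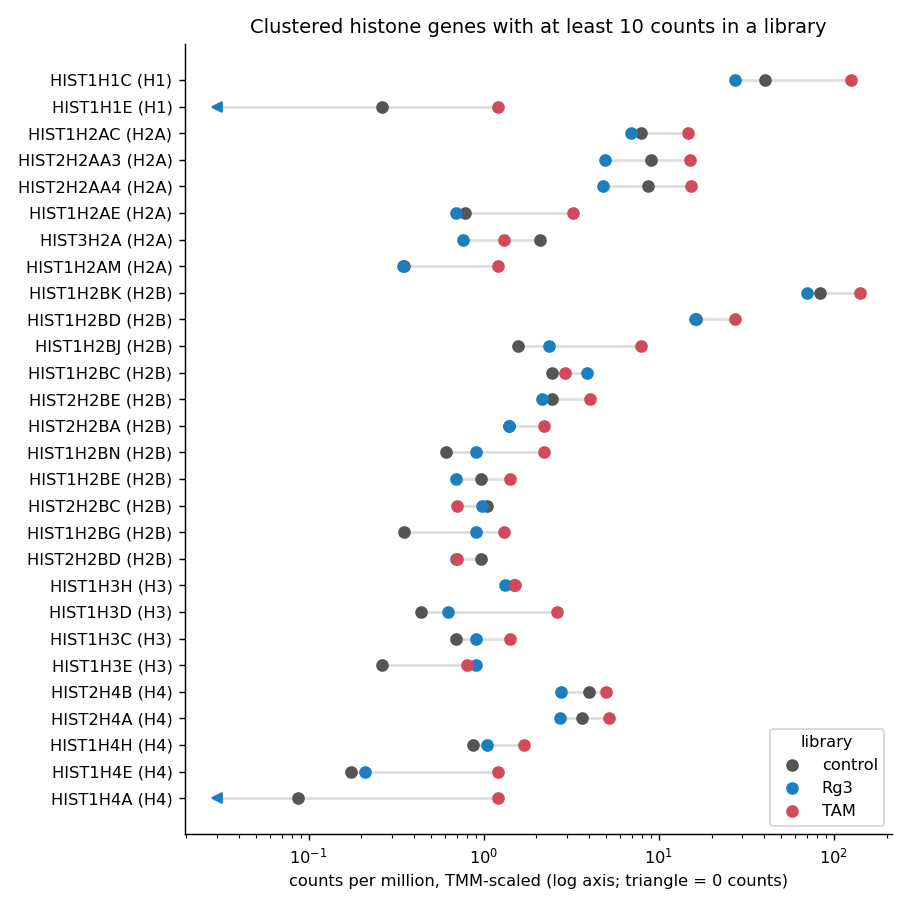
CPM after TMM scaling (log axis) of the 28 clustered histone genes that reached 10 counts, 1 point per library, with a triangle at the left edge for 0 counts. HIST1H2BK and HIST1H1C lie far to the right of the other genes, and the TAM point is the rightmost for most of the 28.

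Counts were scaled by TMM over all genes, and the ratio of a treated library to the control library was given a 95% exact interval (Clopper-Pearson on the reads of both libraries). Intervals cover counting error only and leave out any variation between cultures, and reads are not independent molecules. Summed over the 75 genes, the scaled level was 200.7 CPM (control), 161.8 CPM (Rg3) and 404.0 CPM (TAM). The log2 ratio to control was -0.31 with Rg3 (-0.39 to -0.23) and 1.01 with TAM (0.94 to 1.08). The TAM library was thus the highest of the 3 and the Rg3 library the lowest. In a bulk sample, a change in the share of cells in S phase and a change in histone RNA per such cell cannot be told apart.

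Both ratios depend on the scaling. Dividing by library totals in place of TMM moves every log2 ratio by 0.14 for Rg3 and by -0.21 for TAM, which makes the summed ratios -0.17 and 0.80. Both also stand beside a trend with base composition across all genes, described further on. With that trend and the one with transcript length removed, the summed log2 ratio was -0.04 with Rg3 and 0.65 with TAM.

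**Figure D2:**
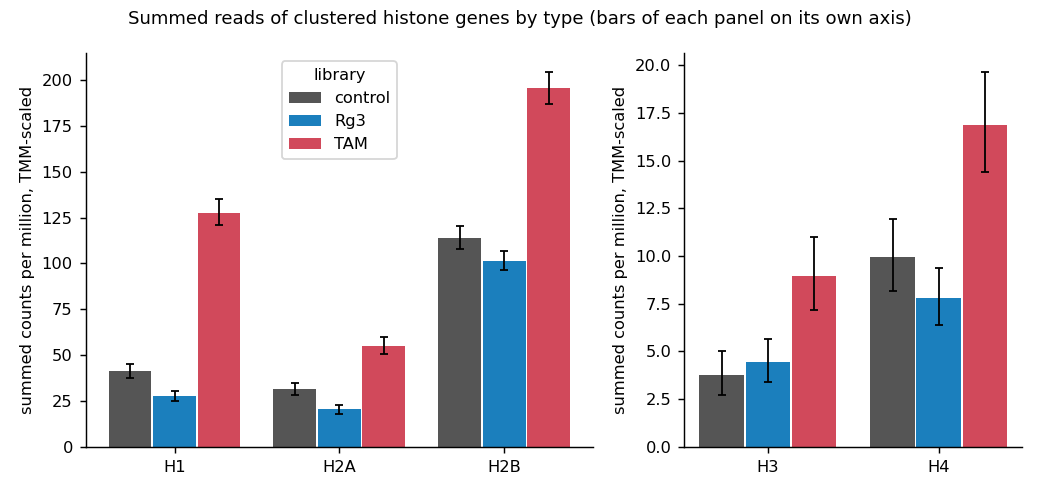
Summed CPM (TMM-scaled) of the clustered genes of each histone type in the 3 libraries, with 95% exact Poisson intervals that cover counting error only, H1, H2A and H2B in the left panel and H3 and H4 on a smaller axis in the right panel. In each type the TAM bar is the highest, and the H1 bar shows the largest ratio of TAM to control.

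H1 summed to 475 (control), 399 (Rg3) and 1271 (TAM) counts, or 41.4, 27.7 and 127.7 CPM. The log2 ratio was 1.63 with TAM (1.47 to 1.78) and -0.58 with Rg3 (-0.77 to -0.38). Nearly all of this is 1 gene, since HIST1H1C held 98.3% of the H1 counts in the control library. HIST1H1C (chr6:26055787-26056428, minus strand, a single coding exon) had 467, 391 and 1252 counts in the control, Rg3 and TAM libraries. TAM stood 3.09-fold above control (log2 1.63, 1.47 to 1.79), and Rg3 at 0.668-fold (log2 -0.58, -0.78 to -0.39), which is at the edge of the 0.67-fold limit used below. No 50-base stretch of HIST1H1C recurs in another gene's transcript, so paralogs do not share its reads at that length. With the GC and length trend removed its log2 fold change with TAM was 1.23.

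The other H1 genes had few reads. HIST1H1E (H1.4) had 3, 0 and 12 counts, HIST1H1B (H1.5) had 5, 4 and 4, and HIST1H1D (H1.3) had 0, 3 and 3 in the control, Rg3 and TAM libraries. HIST1H1T, the testis H1 gene, had 1 count in the Rg3 library and 0 in the others. HIST1H1A had 0 in all 3. Without HIST1H1C the H1 sum had a log2 ratio of 1.45 with TAM (0.20 to 2.86), on so few counts that its size is poorly fixed.

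H2B held the most reads of the types, summing to 1310 (control), 1461 (Rg3) and 1945 (TAM) counts, or 114.1, 101.5 and 195.4 CPM. The log2 ratio was 0.78 with TAM (0.67 to 0.88) and -0.17 with Rg3 (-0.28 to -0.06). The Rg3 value turned to 0.05 (-0.16 to 0.25) when HIST1H2BK was left out, so no direction is given for H2B with Rg3. The TAM value was 0.83 (0.63 to 1.03) without that gene.

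HIST1H2BK (chr6:27146418-27146798, minus strand) had 962, 1010 and 1409 counts in the control, Rg3 and TAM libraries. TAM was 1.69-fold above control (log2 0.76, 0.64 to 0.88) and Rg3 was at 0.837-fold (log2 -0.26, -0.39 to -0.13). With the GC and length trend removed its log2 fold change with TAM was 0.30, below the 1.5-fold limit. The annotation used for that trend holds its coding part of 381 bases, 61.2% GC, whereas the RefSeq gene spans 8566 bases, and which model was counted is not given in the sources used here. Of its 50-base stretches 74.1% recur in other genes, most of them in H2BFS, on which 26, 38 and 43 counts were placed in the control, Rg3 and TAM libraries.

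HIST1H2BD (chr6:26158146-26171349, plus strand), with little shared sequence (5.95% of stretches), had 187, 231 and 272 counts. Its log2 fold change was 0.75 with TAM (0.47 to 1.02) and -0.02 with Rg3 (-0.31 to 0.26), so the TAM library was the higher one, while the Rg3 and control libraries were alike within counting error. HIST1H2BJ (chr6:27125897-27132750, minus strand) had 18, 34 and 79 counts. It stood 5.06-fold above control with TAM (log2 2.34, 1.59 to 3.17) and had a log2 fold change of 0.59 with Rg3 (-0.27 to 1.502). Of its stretches 4.77% recur elsewhere, and with the trend removed its TAM value was 2.15. The TAM value of HIST1H2BJ and that of HIST1H2BK, whose promoters were the most alike of the 3 pairs aligned, have intervals that do not meet.

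HIST1H2BC took another course, with 28, 56 and 29 counts in the control, Rg3 and TAM libraries. The Rg3 library was the highest (log2 0.67, -0.01 to 1.38) and the TAM and control libraries were close (log2 0.26, -0.54 to 1.06), and both intervals reach 0. HIST2H2BE had 28, 31 and 40 counts, with a log2 fold change of 0.72 with TAM (-0.01 to 1.47). HIST1H2BN had 7, 13 and 22 counts, and its exons overlap those of HIST1H2AL on the same strand and of HIST1H2AK on the other, so its reads may not all be its own. The noncoding HIST2H2BC and HIST2H2BD, which overlap each other, had 23, 24 and 14 counts together.

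H2A summed to 362 (control), 294 (Rg3) and 548 (TAM) counts, or 31.5, 20.4 and 55.1 CPM. The log2 ratio was 0.80 with TAM (0.61 to 1.00) and -0.63 with Rg3 (-0.85 to -0.40). HIST1H2AC (chr6:26124145-26139116, plus strand), almost free of shared stretches (0.432%), had 91, 100 and 147 counts. Its log2 fold change was 0.90 with TAM (0.51 to 1.29) and -0.19 with Rg3 (-0.61 to 0.24). HIST1H2AC has the lowest GC content of the genes with at least 50 counts (42.0%), and its TAM value with the trend removed was 0.92. That content is of an annotated transcript of 1668 bases, whereas the RefSeq gene spans 519 bases.

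HIST2H2AA3 and HIST2H2AA4 are a near-identical pair in which 100% and 97.09% of the 50-base stretches recur in the other copy, so their reads can be given only together. They lie on chromosome 1 at chr1:149842188-149842736 and chr1:149851061-149851624, on opposite strands. Together they had 203, 140 and 302 counts in the control, Rg3 and TAM libraries. The log2 ratio was -0.86 with Rg3 (-1.18 to -0.55) and 0.78 with TAM (0.52 to 1.04), which places Rg3 below and TAM above control. The copies had near-equal counts, 104 and 99 (control), 71 and 69 (Rg3) and 150 and 152 (TAM). Whether a shared read was counted on both copies, here and for the copies below, is not given in the sources used here. If it was, sums over such copies and over their type count it again, and the intervals are too narrow. These genes hold much of the H2A value with Rg3. Without the members that share at least 50% of their stretches, the H2A log2 ratio with Rg3 was -0.39.

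HIST3H2A, which held all reads of the HIST3 group, had 24, 11 and 13 counts in the control, Rg3 and TAM libraries. It is the only gene of those compared that was lower past the limit with TAM (log2 -0.68, -1.77 to 0.35), an interval that reaches 0, and it was lower with Rg3 too (log2 -1.45, -2.63 to -0.37). HIST1H2AE had 9, 10 and 32 counts, with a log2 fold change of 2.04 with TAM (0.94 to 3.29).

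H3 had the fewest reads, summing to 43 (control), 64 (Rg3) and 89 (TAM) counts, or 3.74, 4.44 and 8.94 CPM. The log2 ratio was 1.26 with TAM (0.71 to 1.82) and 0.25 with Rg3 (-0.33 to 0.84), the second within counting error. HIST1H3H had 17, 19 and 15 counts and HIST1H3C had 8, 13 and 14. HIST1H3D had 5, 9 and 26, but all of its stretches lie also in a longer transcript of the same strand, and HIST1H3E had 3, 13 and 8, highest with Rg3. HIST1H3B had 5, 5 and 8. The copies HIST2H3A and HIST2H3C had 2, 1 and 16 counts together, a ratio of TAM to control with a log2 interval from 1.12 to 6.37, and overlap the H4 genes HIST2H4B and HIST2H4A on the other strand. Without the H3 genes that share at least 50% of their stretches the H3 log2 ratio with TAM was 0.57, on few counts and with no interval given. Much of the H3 value thus rests on reads that cannot be placed surely.

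H4 summed to 114 (control), 112 (Rg3) and 168 (TAM) counts, or 9.93, 7.78 and 16.9 CPM. The log2 ratio was 0.77 with TAM (0.41 to 1.12) and -0.35 with Rg3 (-0.74 to 0.04). HIST2H4A and HIST2H4B share all of their 50-base stretches and had 88, 79 and 102 counts together, with log2 ratios of 0.42 with TAM (-0.01 to 0.85) and -0.48 with Rg3 (-0.94 to -0.03). Each copy alone had an interval with Rg3 that reached 0 (-1.10 to 0.23 and -1.18 to 0.11). No direction is therefore given for this pair with Rg3. HIST1H4H had 10, 15 and 17 counts in the control, Rg3 and TAM libraries. HIST1H4E had 2, 3 and 12, and HIST1H4A had 1, 0 and 12, for which the 95% interval of the TAM to control ratio on the log2 scale ran from 1.03 to 9.21. HIST1H4J had 4, 4 and 6. HIST4H4, alone on its chromosome, had 0, 0 and 7 counts, so the TAM library alone stood above the 3 counts that a count of 0 allows. Without the H4 genes that share at least 50% of their stretches the log2 ratio with TAM was 1.82, and with Rg3 0.20. Both rest on few counts and are given without an interval.

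Gene by gene, a gene was compared where the higher of the libraries had 10 counts or more, and it was called at a fold over 1.5 or under 0.67, the fold limits of the study's methods. With TAM 27 of the 75 genes were compared, of which 19 were higher and 1 was lower, where 17.4% of all 16079 genes compared were higher and 23.8% lower. The interval lay above 0 for 15 of the 19, by the rule of fold and interval together, which 14.4% of all genes met upward and 19.0% downward. The median log2 fold change of the 27 was 0.82, from -0.68 to 2.58, beside -0.02 over all genes compared. Of the 27, 9 had 10 counts in the TAM library only and 2 in the control library only, and a gene that passes through 1 library only tends toward the direction of that library, so these counts describe the genes and support nothing by themselves. Of the 16 with at least 10 counts in both libraries, 10 were higher and 1 was lower, where 16.2% and 20.9% of all genes under the same minimum were. The 47 genes under 10 counts in every library are those the minimum left out. A gene high in 1 library was thereby taken from that set, so the set is not free of the filter. Together the 47 had 85, 80 and 131 counts in the control, Rg3 and TAM libraries. Their log2 ratio was 0.83 with TAM (0.43 to 1.24) and -0.41 with Rg3 (-0.87 to 0.04). They include the copies HIST2H3A and HIST2H3C, with 2, 1 and 16 of these counts, whose shared reads may have been counted on both.

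With Rg3 23 genes were compared, of which 4 were higher and 4 were lower, 17.4% each way, where 25.0% of all 16487 genes compared were higher and 19.5% lower. The 4 lower genes were HIST1H1C, HIST2H2AA3, HIST2H2AA4 and HIST3H2A, and each of their intervals lay below 0. HIST2H2AA3 and HIST2H2AA4, whose reads can be given only together, count here and with TAM as separate genes. The 4 higher ones were HIST1H2BC, HIST1H2BG, HIST1H2BJ and HIST1H3E, and the interval of each reached 0. By the rule of fold and interval together, 20.9% of all genes were higher and 16.2% lower. Of the 23, 5 passed through the Rg3 library only, HIST1H2BG and HIST1H3E among them. Of the 18 with 10 counts in both libraries 2 were higher and 4 lower, where 23.1% and 18.4% of all genes under that minimum were. The median log2 fold change of the 23 was -0.17, beside 0.04 over all genes compared. The histone shares are thus near the background of this comparison or below it. The Rg3 and TAM comparisons use the same control library, so a high or low control count moves both.

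**Figure D3:**
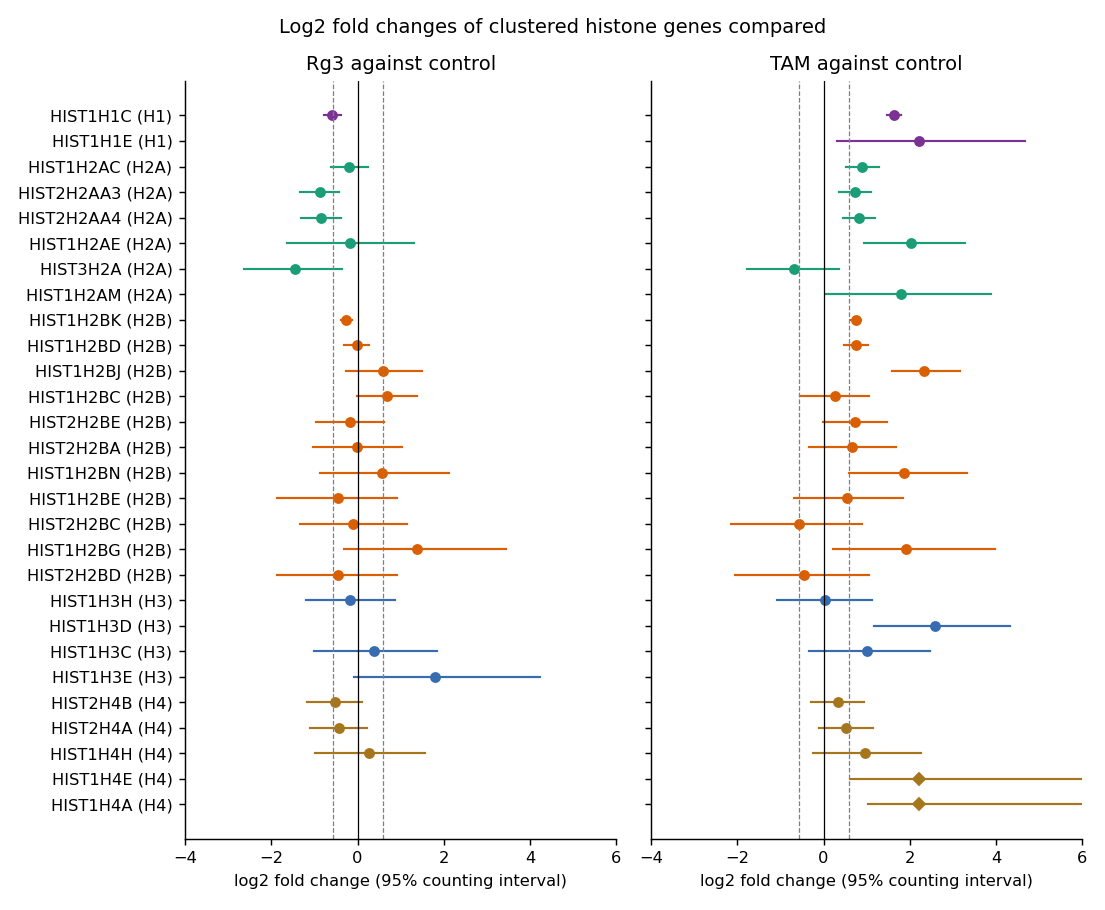
Log2 fold changes of the clustered histone genes compared, Rg3 against control on the left and TAM against control on the right, coloured by histone type, with 95% counting intervals cut at the axis ends and dashed lines at 1.5-fold and 0.67-fold. Diamonds mark genes whose control count was raised to 3. With TAM 19 of 27 points lie beyond the right-hand dashed line, and with Rg3 4 of 23.

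Set directly against each other, at doses that differ, 28 genes were compared between the TAM and Rg3 libraries. In the TAM library 22 were higher and 0 lower, with a median log2 difference of 0.98, where 30.0% of all 16493 genes compared were higher and 35.4% lower. The interval lay above 0 for 17 of the 22, a rule that 27.1% of all genes met upward and 31.1% downward. The minimum was reached in the TAM library only by 5 of the 28 and in the Rg3 library only by 3. Of the 20 that reached it in both, 17 were higher in the TAM library and 0 lower, where 30.7% and 32.3% of all genes under that minimum were. The summed log2 ratio of TAM to Rg3 was 2.20 for H1 (2.04 to 2.37), 1.43 for H2A (1.22 to 1.64), 0.95 for H2B (0.85 to 1.04), 1.01 for H3 (0.53 to 1.495) and 1.12 for H4 (0.76 to 1.48). H1 lay apart from the other types, whose intervals overlap at least one other. That place is nearly HIST1H1C alone. Without it the H1 ratio was 1.78 (0.52 to 3.18), an interval that meets those of all other types.

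Fold changes across all genes followed base composition in both comparisons. Among genes with at least 50 counts, the median log2 fold change with Rg3 went from 0.81 in 1750 genes under 40% GC to -0.48 in 1408 genes of 56% to 60% and -0.60 in 1068 genes of 60% to 64%. With TAM it went the other way, from -0.56 in 1506 genes under 40% to 0.34 in 1431 genes of 56% to 60% and 0.41 in 1085 genes of 60% to 64%. HIST1H1C, at 57.5% GC, was above the median of its bin with TAM (1.63 beside 0.34) and close to it with Rg3 (-0.58 beside -0.48). HIST1H2BK, HIST2H2AA3 and HIST2H2AA4, at 61.2% to 61.8% GC, were nearer to theirs with TAM (0.76, 0.73 and 0.82 beside 0.41), inside the central 80% of that bin, which reached 0.91. HIST1H2AC, HIST1H2BD and HIST1H2BJ, at 42.0%, 47.5% and 49.0% GC, lay above the central 80% of their bins with TAM. HIST1H2BC (47.5% GC, 0.26) and HIST2H4B (47.7%, 0.33) lay inside that of theirs, which reached 0.49, and HIST2H4A (47.9%, 0.51) lay just above it. GC content is here that of the longest annotated transcript. For HIST1H2AC (1668 bases) and HIST1H2BJ (950 bases) it is longer than the RefSeq gene (519 and 480 bases), so their bins depend on the model used. Short transcripts were also higher with TAM, by a median of 0.17 in 425 genes under 700 bases, against -0.59 in 2032 genes of 6000 bases or more. What part base composition and length have in the histone values was not tested beyond the trend removal given beside them.

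**Figure D4:**
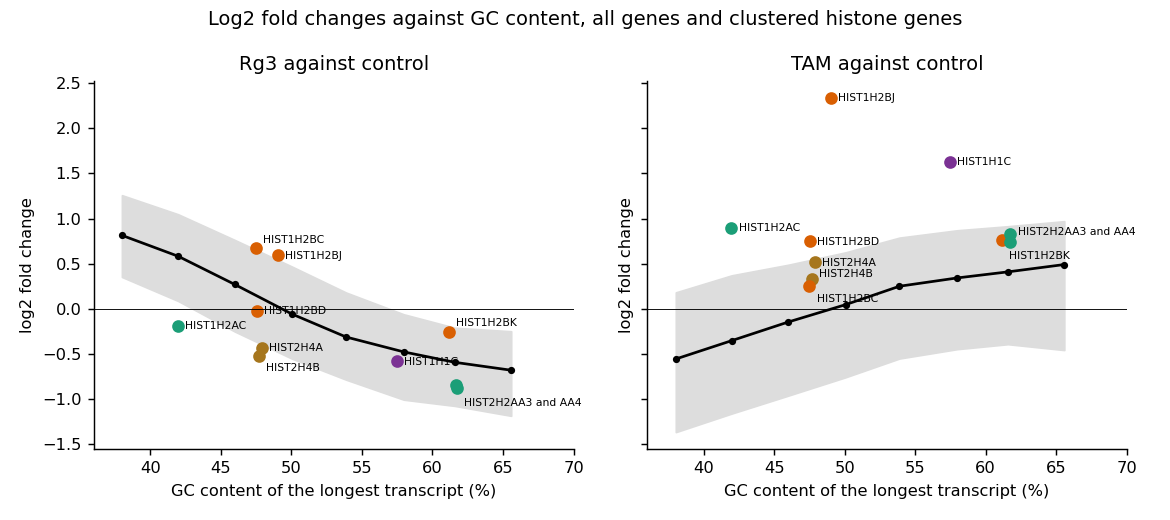
Log2 fold change against the GC content of the longest annotated transcript, Rg3 on the left and TAM on the right. The black line joins the medians of all genes with at least 50 counts in bins of GC content, the grey band spans their 10th to 90th percentile, and the points are the clustered histone genes with at least 50 counts in a library. HIST1H2BJ (2.34), HIST1H1C (1.63), HIST1H2AC (0.90) and HIST1H2BD (0.75) lie above the band with TAM.

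Most H2A and H2B genes stand head to head. In the annotation 14 pairs of the 75 genes start on opposite strands within 1000 bases of each other, 13 of them an H2A with an H2B gene, with 124 to 357 bases between the starts. The reads of a pair could be very unequal. HIST1H2AH had 2, 1 and 5 counts beside the 962, 1010 and 1409 of HIST1H2BK, and HIST1H2AG had 3, 5 and 6 beside the 18, 34 and 79 of HIST1H2BJ. HIST1H2AC, at 91, 100 and 147, was higher with TAM, while HIST1H2BC, 219 bases away at 28, 56 and 29, was highest with Rg3. The 26 genes whose promoter held the octamer had 1190, 1308 and 1856 counts in the control, Rg3 and TAM libraries (log2 ratio with TAM 0.85, 0.74 to 0.95). The 35 whose promoter did not had 841, 810 and 1779 (1.29, 1.17 to 1.41). The order of these ratios rests on the most read gene of each set. The first set includes HIST1H3D, by the window it shares with HIST1H2AD. Without HIST1H2BK the first set had 228, 298 and 447 counts (1.18, 0.94 to 1.41), and without HIST1H1C the second had 374, 419 and 527 (0.70, 0.51 to 0.90), a removal chosen after the values were seen.

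Histone variants classed as replication-independent were listed for comparison. Of 12 such genes 1 was higher and 0 lower with TAM, with a median log2 fold change of 0.19, and 0 were higher and 3 lower with Rg3 (median -0.14). Over all genes compared, 17.4% were higher and 23.8% lower with TAM, and 25.0% and 19.5% with Rg3. Counts of the genes named here and below are raw, so the order of the libraries can differ after scaling. H2AFZ, which encodes H2A.Z, had 5854, 10032 and 6643 counts in the control, Rg3 and TAM libraries, and H3F3B, which encodes H3.3, had 5556, 7037 and 5592. H1F0, the linker histone of resting cells, had 3064, 3031 and 1902, a log2 fold change of -0.48 with TAM, where HIST1H1C had 1.63. H2AFY had 2286, 2329 and 2284. The variant called higher with TAM was H2AFJ (569, 490 and 848 counts, log2 0.78).

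A further list of 20 genes was set up for histone mRNA 3′ processing and decay, though not all of them are specific to it. Of these, 3 were higher and 5 lower with TAM (median log2 fold change -0.12). With Rg3 8 were higher and 2 lower (median 0.27). The shares over all genes compared were 17.4% higher and 23.8% lower with TAM, and 25.0% and 19.5% with Rg3. LSM10, a subunit of the U7 particle that cuts histone pre-mRNA, had 1165, 1331 and 2020 counts in the control, Rg3 and TAM libraries, and its partner LSM11 had 49, 109 and 73. SLBP, which binds the stem-loop, had 584, 872 and 418 (log2 0.25 with Rg3 and -0.28 with TAM). NPAT, the activator of histone gene transcription, had 84, 263 and 45 counts, and CASP8AP2, or FLASH, had 115, 251 and 21, both highest with Rg3 and lowest with TAM, opposite in order to the histone sums. With the GC and length trend removed NPAT was at 0.48 with Rg3 and 0.03 with TAM, and CASP8AP2 at -0.05 and -1.47. UPF1, which takes part in histone mRNA decay, had 1344, 1238 and 1262, CPSF1 had 1499, 1164 and 1652 and CSTF2 had 1135, 1330 and 1169.

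The 26 S phase genes had a median log2 fold change of 0.19 with TAM, with 4 higher and 2 lower, and of -0.28 with Rg3, with 1 higher and 8 lower. For these and the chaperones below, the all-gene shares were 17.4% higher and 23.8% lower with TAM, and 25.0% and 19.5% with Rg3. The most read S phase genes were MCM7 (4575, 3260 and 5516 counts in the control, Rg3 and TAM libraries), MCM3 (4150, 4307 and 3813), TYMS (3655, 3762 and 4343) and TK1 (2639, 2141 and 3731). After scaling MCM3 stood at 361.4, 299.1 and 383.1 CPM, highest with TAM and lowest with Rg3. MCM7 and MCM3 are subunits of the replicative helicase, and TYMS and TK1 supply thymidylate. TK1 was called higher with TAM (log2 0.71) and lower with Rg3 (-0.63), values that were 0.17 and -0.03 with the trend removed. Of 19 histone chaperones 1 was higher and 2 lower with TAM (median -0.04), and 6 were higher and 1 lower with Rg3 (median 0.09). SSRP1, a subunit of the FACT complex, had 3339, 3392 and 3731 counts, and NAP1L4 had 2709, 3777 and 3110. NAP1L1 had 1787, 3548 and 1181 (log2 0.66 with Rg3, and -0.10 with the GC and length trend removed), and HJURP, the chaperone of CENPA, had 1717, 2293 and 1844.

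RNAs that carry no poly(A) tail were listed because the classical histone mRNAs lack one too. Of 26 such noncoding RNAs, 4 had no count and most had under 10. With TAM 8 were compared, of which 4 were higher and 1 was lower. Their median log2 fold change was 0.57, and 0.14 with the GC and length trend removed. RN7SK and RMRP, among the 4 higher, reached 10 counts in the TAM library only, and SNORA73A and SNORA73B in the control library only. These counts thus describe the RNAs and support nothing by themselves. At a minimum of 50 counts the median was 1.19, over RN7SK, RN7SL1 and RN7SL2 alone. With Rg3 6 were compared, of which 1 was higher and 1 lower (median -0.10, and 0.13 with the trend removed). All genes compared had 17.4% higher and 23.8% lower with TAM, and 25.0% and 19.5% with Rg3. RN7SL1 had 744, 1165 and 1068 counts in the control, Rg3 and TAM libraries, RN7SL2 had 340, 650 and 671, and SNORD3A had 30, 33 and 18. RN7SK, an RNA polymerase III transcript that holds an elongation factor inactive, had 8, 7 and 113 counts, and RMRP had 6, 7 and 39. RN7SK and RMRP were thus highest in the library in which the histone sums were highest. After scaling so were RN7SL1 (64.8, 80.9 and 107.3 CPM in the control, Rg3 and TAM libraries) and RN7SL2 (29.6, 45.1 and 67.4 CPM). SNORD3A was lowest there (2.61, 2.29 and 1.81 CPM). The part in the histone values of how much RNA without a poly(A) tail each library captured was not tested.

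**Figure D5:**
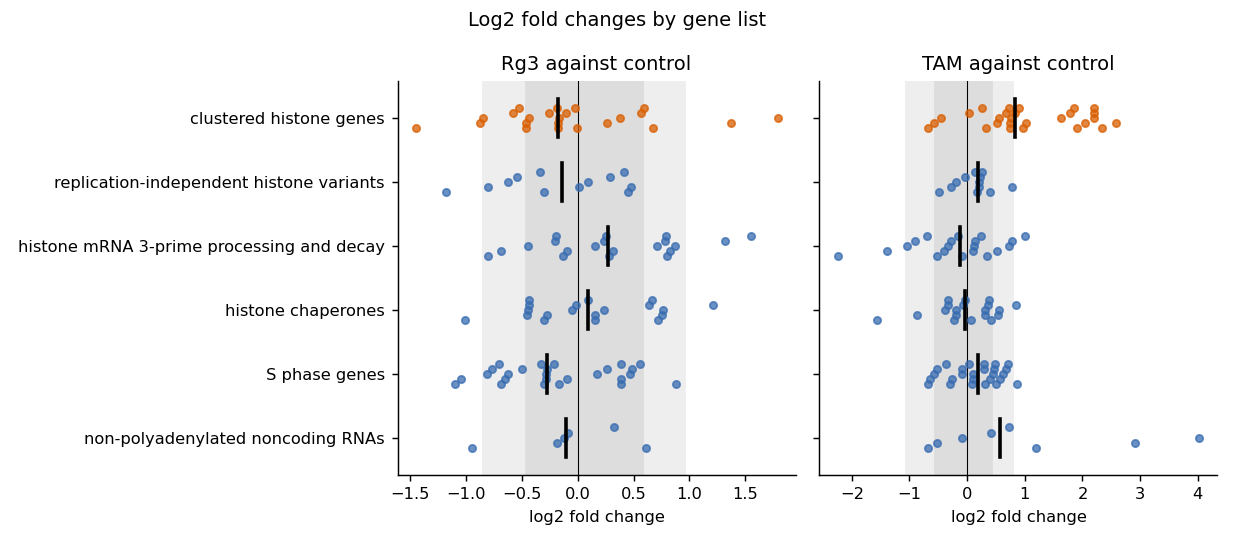
Log2 fold changes of the members compared of each gene list, Rg3 against control on the left and TAM against control on the right, with a black bar at the median of each list, and grey bands for the central 80% (light) and 50% (dark) of all genes compared. The median of the clustered histone genes is 0.82 with TAM and -0.17 with Rg3, at a minimum of 10 counts that 9 of the 27 genes compared with TAM reached in the TAM library only.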

How the data were processed

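Total RNA was sequenced on an Ion Proton. The methods name FAST-QC, TopHat and MAQ, and the submitters' processing notes name GRCh38. The annotation, the counter and the use of strand are not given in the sources used here. The authors deposited raw counts per gene symbol. All value columns belonged to a library.

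Counts were scaled by TMM (edgeR 4.0.16, R 4.3.3), with factors of 1.0160, 1.1196 and 0.8791 for control, Rg3 and TAM. Ratios and exact intervals were computed in Python 3.11.15 with scipy 1.17.1. For a fold, counts below 3 were set at 3, and no fold was computed where both were at or below it. The FDR of the methods could not be had with 1 library per condition, so calls rest on the fold. Alternatives were library totals, size factors from DESeq2 1.42.0, other count minimums and folds, protein-coding genes only, genes without shared sequence, and removal of a loess trend (span 0.3) on GC content and length, which were known for 86.25% of the genes with 10 counts. The steps were tested on simulated data.

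Shared stretches, stem-loops and coordinates came from GENCODE 29 transcripts, and promoters from RefSeq. Named genes are the 5 most read of each histone type, the 5 highest and 5 lowest calls with 50 counts, and the 4 most read of each of 5 lists. Other histone genes, NPAT, CASP8AP2, SLBP, LSM11, H2AFJ and RMRP were named after their values were seen. The members and lists were chosen with earlier results of these data known.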

Additional observations from a re-analysis of the deposited data

Results flagged for a closer look

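HIST1H3PS1, an H3 pseudogene name left out of the comparisons, had 13 (Rg3) and 8 (TAM) counts, beside 6 (control). It was picked out because reads lay above the control on a row that no comparison used. With 1 library per condition the difference has no replicate check.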

How the results depend on the processing

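No paired analysis was possible because each group has 1 library, and leaving out a library would leave a group with none. Size factors from DESeq2, restriction to protein-coding genes and a floor of 1 count moved none of the results beyond their limits. The sign of the summed TAM ratio held under each alternative, while that of Rg3 for H2B and H4 did not. For TAM this holds for the ratio alone. No interval is given for the alternatives without shared sequence, where H3 and H4 rest on few counts.

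Division by library totals gave summed log2 ratios with Rg3 of -0.029 for H2B and -0.17 for all types, with TAM of 1.42 (H1), 0.60 (H2A), 0.57 (H2B) and 0.80 (all), and of TAM to Rg3 of 1.86, 1.08, 0.60 and 0.97. It called 3 genes lower with TAM and 2 lower in TAM against Rg3, and put the median of the histone variants in TAM against Rg3 at -0.28. This division moved every log2 fold change by -0.21 with TAM and by -0.35 in TAM against Rg3. No share over all genes is given under it, so these counts show only the movement. With the GC and length trend removed the ratios with Rg3 were -0.24 (H1), 0.12 (H2B) and -0.040 (all), with TAM 1.22 (H1), 0.49 (H2A), 0.43 (H2B) and 0.65 (all), and of TAM to Rg3 1.46, 1.09, 0.40 and 0.77, with 0.43 for H3. NAP1L1 then reversed to -0.10 with Rg3 and 0.72 in TAM against Rg3, and in the latter HIST1H3C reversed to -0.19 and HIST3H2A to -0.018.

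Without genes that share at least 50% of their stretches, ratios were -0.39 (H2A), 0.085 (H2B) and 0.20 (H4) with Rg3, 0.89 (H2B), 0.57 (H3), 1.82 (H4) and 1.30 (all) with TAM, and 1.21 (H2A), 0.81 (H2B), 0.27 (H3), 1.61 (H4) and 1.55 (all) for TAM to Rg3. That left 2 genes lower with Rg3 and 14 higher in TAM against Rg3. Over all genes compared, 19.5% were lower with Rg3 and 30.0% higher in TAM against Rg3. Without the most read gene, ratios were -0.33 (H1) and 0.047 (H2B) with Rg3, 1.45 (H1) and 1.17 (all) with TAM, and 1.78 (H1), 0.78 (H2B) and 1.52 (all) for TAM to Rg3. Without HIST1H2BK, chosen after seeing the data, the ratio with Rg3 of the genes with the octamer was 0.060.

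Calls moved with the limits. For the minimums of 1 and 50 counts and the fold of 2 no share over all genes is given, so those counts show only the movement. A minimum of 1 count gave 11 lower with Rg3, and with TAM 35 higher and 4 lower, and 37 higher in TAM against Rg3. A minimum of 50 gave 1 higher with Rg3, 7 higher and 0 lower with TAM and 9 higher in TAM against Rg3. A fold of 2 left 2 calls upward and 1 downward under Rg3, 11 and 0 under TAM, and 14 higher in TAM against Rg3. Fold and interval together gave 0 higher with Rg3 and 0 lower with TAM, where 20.9% and 19.0% of all genes were. A minimum of 20 counts over both libraries, chosen after seeing the data, gave 2 higher and 4 lower of 20 with Rg3. Under that minimum 24.1% of all genes were higher and 18.9% lower. With TAM it gave 14 higher and 1 lower of 20, where 16.8% and 22.7% of all genes were. Counts under 100 on most genes limit single ratios.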
